A study of Mus musculus with 4 samples.

Results

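The Bcl-2 family was followed through the cells of mouse tibia and femur as 10 genes: Bcl2, Bcl2l1, Mcl1, Bcl2a1a, Bcl2a1b, Bcl2a1d, Bax, Bak1, Bcl2l11 and Bid. They were taken by symbol from the 31053 genes of the matrices, whatever their values, and all 10 were found. Of the 40003 deposited barcodes, the 32217 with 1000 to 40000 unique molecular identifiers (UMIs, each a counted transcript molecule) and at most 10% mitochondrial UMIs were used, and 30119 were left once putative doublets had been removed. Wild-type mice had been tail-suspended for 28 days so that the hindlimbs bore no weight (hindlimb unloading, HLU, 2 mice) or had been left untreated (Ctrl, 2 mice). The study's methods give C57BL/6J mice of 8 weeks, whereas the design text names postnatal day 28. Marrow had been washed out with PBS before the bones were taken apart enzymatically, and each mouse gave 1 library of 3′ single-cell RNA sequencing.

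The libraries held 47819046 to 99849070 UMIs and the median cell 3799 to 6294.5. HLU replicate 2 stood apart from the other 3 libraries before any gene was compared: it had the most UMIs, only 267 barcodes under 1000 UMIs against 2143 to 2585, 58 macrophages against 1 to 9 and 370 erythroid cells against 8 to 57. Means ± SD over 4 libraries include it, and its values are given separately for the results that turn on them. Pairs of libraries shared 13 to 21 cell barcodes. Cartilage and mesenchymal transcripts made up 0.0689 to 0.492% of the UMIs of Ctrl blood cell types and at most 0.00918% of those of HLU blood cell types. The cells fell into 30 clusters, of which 24 were named from marker lists and gave 17 types, with 1.43 to 12.9% of cells left in unnamed clusters. Each name stands for cells that are like that type by its markers, such as Elane and Mpo for neutrophil progenitors, Camp and Ltf for immature neutrophils, Cxcr2 and Csf3r for mature neutrophils, and Ccrl2 and Cd274 for activated mature neutrophils. Dendritic cells were led by Ccl22 and Fscn1, chondrocytes by Acan and Col10a1 or by Col9a1 and Matn3, and stromal cells by Col1a1, Col3a1 or Ogn. The stromal cluster led by Myoc, Apod and Ogn also had the stress genes Hspa1a, Hspa1b and Egr1 among its top genes. The osteoclast and osteoblast lists named no cluster.

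The Bcl-2 family decides whether the outer membrane of the mitochondria is opened, the step that releases cytochrome c and starts the caspases of intrinsic apoptosis. Its survival proteins (Bcl-2, Bcl-xL from Bcl2l1, Mcl-1 and A1 from the Bcl2a1 genes) bind and restrain the pore-forming effectors Bax and Bak and the BH3-only proteins, such as Bim from Bcl2l11 and Bid, which respond to stress or to lost growth signals. Blood cells are known to rely on different survival proteins: Mcl-1 for neutrophils and many progenitors, Bcl-xL for late red cell precursors and platelets, Bcl-2 for resting lymphocytes. Mcl-1 and A1 are short-lived proteins.

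The 3 Bcl2a1 genes lie on chromosome 9 of mm10 and are near-copies. Bcl2a1a spans 88956900 to 88962419 on the plus strand, Bcl2a1b 89199209 to 89207827 on the plus strand, and Bcl2a1d 88723285 to 88731914 on the minus strand. Their coding sequences of 516 bases differed at 12 positions. Bcl2a1a was 97.9% identical to Bcl2a1b and 98.6% to Bcl2a1d, and Bcl2a1b and Bcl2a1d were 98.8% identical. The first 90 coding bases, shown because they hold 6 of the 12 differences, are given below with the differing positions in capitals.
Bcl2a1a: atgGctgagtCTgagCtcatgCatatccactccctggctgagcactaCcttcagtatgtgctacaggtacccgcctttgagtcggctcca
Bcl2a1b: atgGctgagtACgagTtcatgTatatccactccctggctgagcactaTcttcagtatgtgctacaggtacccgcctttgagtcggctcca
Bcl2a1d: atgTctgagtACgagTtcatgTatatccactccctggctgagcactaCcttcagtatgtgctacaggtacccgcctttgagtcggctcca
Of all 91-base windows of the transcripts, 46.6% for Bcl2a1a, 35.6% for Bcl2a1b and 61.1% for Bcl2a1d occurred in another of the 3, and of the last 300 windows, nearest to the sequenced end, 27.7%, 34.7% and 62.3% did. A read from such a window cannot be given to a gene, so the split between the 3 is uncertain and their sum is used for levels. A read given to no gene is missing from the sum as well. The sum and its shares may thus be too low, by an amount that was not measured.

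The stretch around the annotated starts of Bcl2a1a and Bcl2a1b is copied as well, and is shown because the levels of these 2 genes had different ratios in different cell types. Over the 206 bases at chr9:88956714-88956919 (Bcl2a1a) and chr9:89199023-89199228 (Bcl2a1b; RefSeq sequences of GRCm38.p6, plus strand), 1 base differed, in capitals, which made them 99.5% identical.
Bcl2a1a: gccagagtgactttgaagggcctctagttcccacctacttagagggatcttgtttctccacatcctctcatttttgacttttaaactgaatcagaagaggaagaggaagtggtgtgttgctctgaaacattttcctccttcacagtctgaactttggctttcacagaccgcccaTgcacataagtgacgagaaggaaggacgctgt
Bcl2a1b: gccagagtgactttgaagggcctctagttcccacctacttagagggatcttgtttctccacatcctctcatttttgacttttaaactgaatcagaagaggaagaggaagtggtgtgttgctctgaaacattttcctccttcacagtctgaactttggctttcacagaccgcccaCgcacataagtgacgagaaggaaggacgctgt

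Levels are in CPM, the UMIs of a gene scaled to a fixed total of UMIs of that cell type in that library (1e+06), given for libraries with at least 20 cells of the type. A 3′ library counts 1 end per molecule, so CPM does not scale with transcript length. Levels of different genes can be set side by side, except that those of the Bcl2a1 genes may be too low. Cell types are clusters of the same cells, so their order is a description without a test.

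Mcl1 (chromosome 3, 95658788 to 95663176) was the most abundant survival transcript in most cell types, and its mean over libraries was highest in mature neutrophils. There the 2 Ctrl libraries had 1849 and 2259 CPM, and the HLU libraries 1528 and 434 CPM in the order of their replicates. The first 3 libraries lay close together and HLU replicate 2 lay far below them. Activated mature neutrophils followed with 1159.6 ± 637 CPM (mean ± SD, n = 4), intermediate neutrophils with 806 ± 408 CPM and monocytes with 736 ± 300.2 CPM (n = 4). Dendritic cells (655 ± 471 CPM, n = 3) and immature neutrophils (577 ± 329 CPM, n = 4) came next. Mature B cells, stromal cells, precursor B cells, dividing immature neutrophils, T and NK cells, basophils, chondrocytes and megakaryocytes lay between 392 and 197 CPM on average, neutrophil progenitors at 189 ± 85.6 CPM and erythroid cells at 124 ± 150.4 CPM (n = 2). In HLU replicate 2 activated mature neutrophils had 349 CPM, intermediate neutrophils 255, monocytes 293, dendritic cells 233 and immature neutrophils 119 CPM, each below the other libraries. Macrophages, measured in HLU replicate 2 alone, had 1061 CPM, above the 434 CPM of mature neutrophils in that library, and have no place in the order of means. The ranges of neighbours overlapped all along this order.

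**Figure D1:**
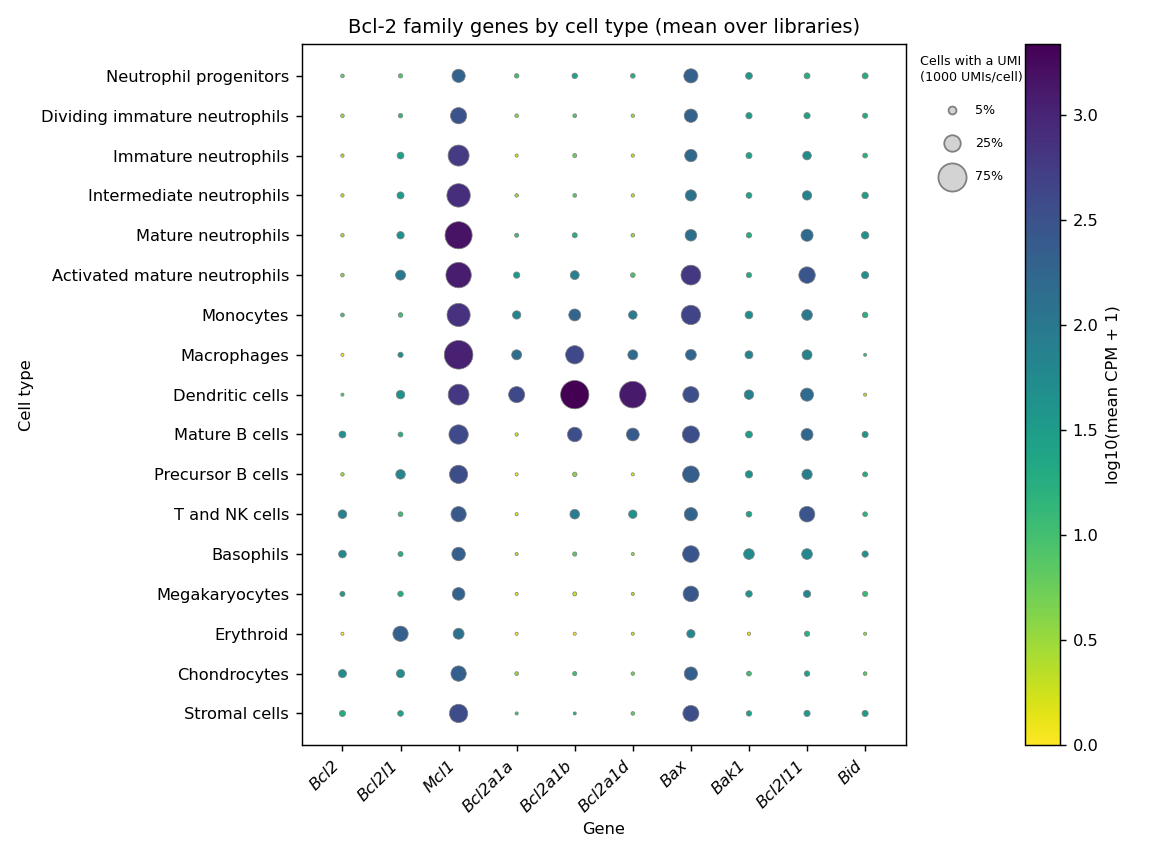
Mean level of each of the 10 genes (x axis) in each of the 17 cell types (y axis), over the libraries with at least 20 cells of the type. Colour is log10(mean CPM + 1) and dot area grows with the mean share of cells with a UMI after thinning to 1000 UMIs a cell. Mcl1 is dark in mature neutrophils (1517 CPM), Bcl2a1b in dendritic cells (2179 CPM), and Bcl2l1 is darkest in erythroid cells (204 CPM).

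The Bcl2a1 genes, targets of NF-kB in stimulated immune cells, reached the highest level of the family when summed. In dendritic cells the sum stood at 3784 CPM in Ctrl replicate 2 and, in HLU, at 2782 CPM (replicate 1) and 5047 CPM (replicate 2), and no other type reached this range. Macrophages had 704 CPM (HLU replicate 2) and mature B cells 618, 631, 321 and 836 CPM in Ctrl replicates 1 and 2 and HLU replicates 1 and 2. In monocytes the sum was 101 and 135 CPM in Ctrl, and HLU replicate 1 had 73.7 CPM against 1037 CPM in HLU replicate 2, so that 1 library set both the mean of 337 CPM and its SD of 468. T and NK cells were steadier, at 128 ± 31.2 CPM (n = 4). At the other end, precursor B cells, megakaryocytes and erythroid cells averaged 0.727 to 3.55 CPM. Among B cells, the sum thus went from 7.41, 0 and 3.24 CPM in precursor cells to between 321 and 836 CPM in mature ones.

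The 3 copies were not used in one ratio. Bcl2a1a gave 17.8 ± 4.58% of the Bcl2a1 UMIs in monocytes, 17.6 ± 12.9% in activated mature neutrophils (n = 4 each) and 18.9 ± 8.17% in neutrophil progenitors (n = 3). In mature B cells it gave 0.087 ± 0.102% of 2555 UMIs, and in T and NK cells 0.325 ± 0.649% of 286 UMIs (n = 4 each). Lymphocytes thus had Bcl2a1b and Bcl2a1d with next to no Bcl2a1a in all 4 libraries. Dendritic cells lay between, at 9.57 ± 4.96% (n = 3). Bcl2a1d varied in another way: it gave 9.47 ± 2.97% of the sum in activated mature neutrophils, 32.2 ± 5.35% in monocytes and 40.0 ± 3.05% in mature B cells (n = 4 each). Bcl2a1c, the fourth copy, averaged at most 0.249 CPM in any type.

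Bcl2l1 (chromosome 2, 152780668 to 152831728), which makes Bcl-xL, was highest in erythroid cells, with 139 and 268 CPM in HLU replicates 1 and 2, and this range did not overlap that of the next type. The Ctrl libraries held 8 and 13 erythroid cells and gave no level. Activated mature neutrophils came second at 93.5 ± 37.2 CPM (n = 4), then precursor B cells at 61.7 ± 20.7 CPM (n = 3) and chondrocytes at 51.0 ± 20.5 CPM (n = 4). Monocytes (9.61 ± 3.29 CPM) and neutrophil progenitors (7.22 ± 1.19 CPM, n = 4 each) were lowest. Precursor B cells, at 38.9 to 79.4 CPM, and mature B cells, at 11.3 to 24.9 CPM, did not overlap, the reverse of the order for the Bcl2a1 genes.

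Bcl2 itself (chromosome 1, 106538178 to 106714274) was highest in T and NK cells, basophils, chondrocytes and mature B cells. T and NK cells had 44.8, 79.5, 69.0 and 92.4 CPM in Ctrl replicates 1 and 2 and HLU replicates 1 and 2, basophils 81.0 and 37.8 CPM in the HLU replicates, and mature B cells 46.2 ± 5.95 CPM (n = 4). Chondrocytes averaged 48.7 CPM, but with 102 and 66.8 CPM in Ctrl and 15.8 and 9.79 CPM in HLU. From dividing immature to activated mature neutrophils Bcl2 stayed at averages of 1.13 to 3.03 CPM, and in precursor B cells it stood at 1.98 ± 2.18 CPM (n = 3).

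Of the effectors, Bax (chromosome 7, 45461697 to 45466898) exceeded Bak1 (chromosome 17, 27019810 to 27029009) in each of the 17 types. Bax was highest in activated mature neutrophils, at 749.6 and 565 CPM in Ctrl and 778 and 409 CPM in HLU. Monocytes followed at 459.7 ± 73.2 CPM (n = 4), and erythroid cells were lowest at 61.1 ± 28.8 CPM (n = 2). Activated mature neutrophils pool 2 clusters. The cluster led by Ccrl2 and Cd274 had 314 and 359 CPM in Ctrl and 393 and 287 CPM in HLU, below monocytes in every library. Bak1 was highest in dendritic cells at 79.1 ± 29.4 CPM (n = 3) and in monocytes stood at 51.8 ± 9.26 CPM (n = 4), against 9.89 ± 4.58 CPM in chondrocytes and 0 and 0.727 CPM in erythroid cells. Among the neutrophil stages the ratio of Bax to Bak1 was lowest in intermediate neutrophils (4.58 ± 0.247) and highest in activated mature neutrophils (32.2 ± 9.25, n = 4 each). Over all types it ran from 2.48 in macrophages to 56.0 in erythroid cells, in HLU replicate 2 alone, the latter on 1 Bak1 UMI. Chondrocytes, at 23.5 ± 6.12, also leaned to Bax.

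Among the BH3-only genes, Bcl2l11 (chromosome 2, 128126038 to 128162547) was the more abundant. It reached 293 ± 84.3 CPM in activated mature neutrophils, 291 ± 70.9 CPM in T and NK cells, 171 ± 26.2 CPM in mature B cells and 151 ± 53.2 CPM in mature neutrophils (n = 4 each). The lowest 3 types were dividing immature neutrophils, neutrophil progenitors and erythroid cells, at 25.9, 18.3 and 15.8 CPM. T and NK cells thus combined high Bcl2 with high Bcl2l11, while chondrocytes had Bcl2 with little Bcl2l11 (10.1 and 16.2 CPM in Ctrl). Bid (chromosome 6, 120891930 to 120916853), which links death receptors to mitochondria, stood at 46.9 ± 19.3 CPM in activated mature neutrophils and 43.1 ± 17.8 CPM in mature neutrophils (n = 4 each), and in dendritic cells gave 0, 0 and 4.09 CPM.

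To ask which survival gene each cell type used most, the UMIs of the 6 survival genes were added up and each gene's share was taken, with the Bcl2a1 genes as 1 group. By the mean share, Mcl1 led in 14 of the 17 types, the Bcl2a1 genes in dendritic cells (84.1%) and mature B cells (55.9%), and Bcl2l1 in erythroid cells (65.5%). The share of Mcl1 was highest in neutrophils: it was 91.98% in immature, 93.2% in intermediate and 92.1% in mature neutrophils. T and NK cells had a mixture, with Mcl1 at 54.6%, the Bcl2a1 genes at 28.0% and Bcl2 at 15.3%. Mature B cells were led by the Bcl2a1 genes in both Ctrl libraries (56.5 and 55.0%) and in HLU replicate 2 (75.4%), and by Mcl1 in HLU replicate 1 (56.7%). When the shares within single cells were averaged in place of the summed counts, over cells with a survival gene UMI, Mcl1 led there. Erythroid cells were led by Bcl2l1 in HLU replicate 2 (93.4%) and by Mcl1 in HLU replicate 1 (62.3%), so their place rests on HLU replicate 2.

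**Figure D2:**
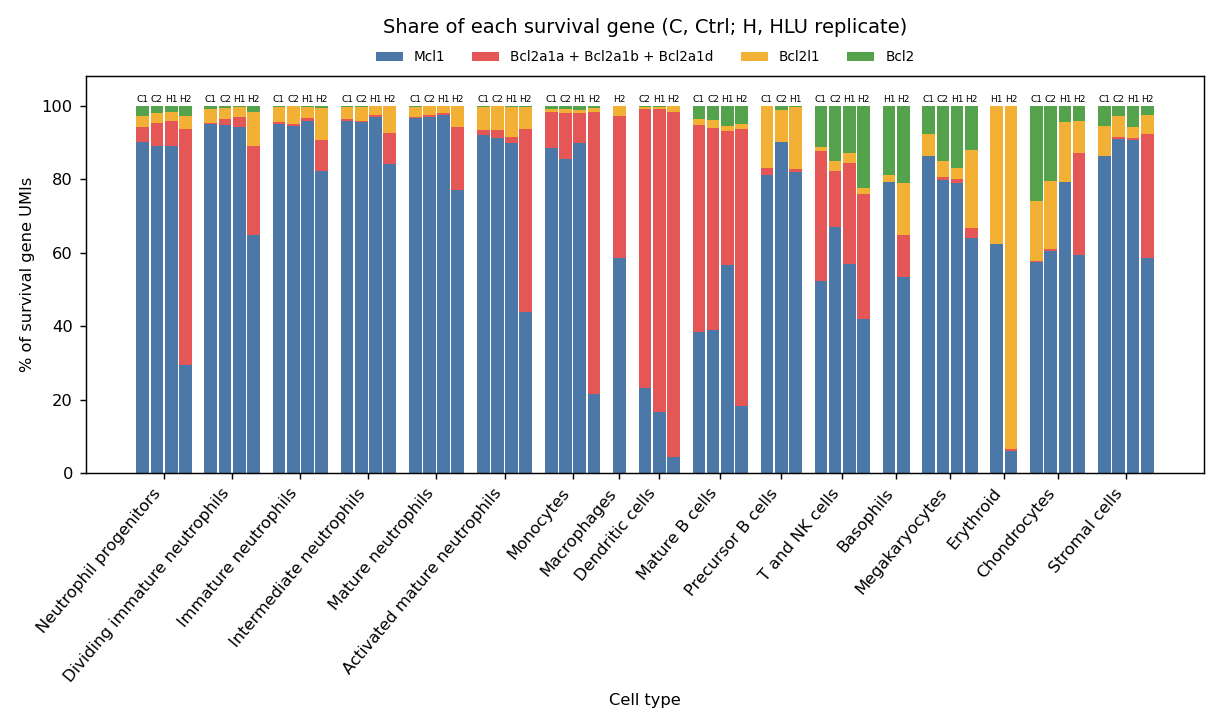
Share of each survival gene in the summed UMIs of the 6 survival genes (y axis, %), with 1 stacked bar per library (C1 and C2, Ctrl replicates; H1 and H2, HLU replicates) grouped by cell type (x axis) and the 3 Bcl2a1 genes drawn as 1 colour. Mcl1 fills most of the neutrophil bars, the Bcl2a1 genes the dendritic cell bars (75.9 to 94.1%), and in HLU replicate 2 also most of the monocyte bar (76.7%).

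By library, Mcl1 led in 12 of 13 types in Ctrl replicate 1, 12 of 14 in Ctrl replicate 2 and 15 of 16 in HLU replicate 1. In HLU replicate 2 it led in 10 of 16, the Bcl2a1 genes in 5 and Bcl2l1 in 1. The 5 were neutrophil progenitors, activated mature neutrophils, monocytes, mature B cells and dendritic cells, and the first 3 of them were led by Mcl1 in every other library.

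The same question was put to single cells, each thinned to 1000 UMIs. Of thinned mature B cells, 10.4 to 29.1% in the 4 libraries had a Bcl2a1 UMI without Mcl1, 12.6 to 36.0% had Mcl1 without Bcl2a1, and 5.95 to 8.80% had both. Cells with both were the smaller group in all 4 libraries. Each was found in a minority of the thinned cells, so this would also arise if both were found independently of each other. The smaller group therefore says nothing of separate use. In dendritic cells 87.5, 91.3 and 98.5% of thinned cells had a Bcl2a1 UMI, against 0, 0, 2.50 and 0% of megakaryocytes, which should lack the genes (median depths of 8527, 9229 and 6877 UMIs and of 3203 to 14192 UMIs before thinning). A thinned cell without a UMI is not a cell without the transcript.

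Along neutrophil maturation the family changed in opposite directions, and most steps went the same way in every library. Within each library, the CPM of Mcl1 rose at all 4 steps from progenitors through dividing, immature and intermediate to mature cells, by 7.60-fold in all (log2 ratio 2.93 ± 0.39, SD, n = 4). Bcl2l1 rose at the same steps by 5.76-fold (log2 ratio 2.53 ± 0.63) and Bcl2l11 by 7.99-fold (log2 ratio 2.998 ± 0.37). In CPM, the gene of the short-lived survival protein and that of its antagonist Bim thus rose side by side, in 4 of 4 libraries. CPM is a share, and mature cells had fewer UMIs per cell than progenitors. In Ctrl replicate 1, 177 progenitors held 2046101 UMIs, 368 of them Mcl1, and 605 mature cells 1233356, 2280 of them Mcl1. In HLU replicate 2 the 665 progenitors had 1079 Mcl1 and 131 Bcl2l1 UMIs, and the 1345 mature cells 2445 and 179. Per cell, the rise of Mcl1 and Bcl2l11 was thus smaller than in CPM. Bcl2l1 also rose less per cell in the Ctrl libraries, and it fell in both HLU libraries. In HLU replicate 1, 480 progenitors held 38 Bcl2l1 UMIs and 1376 mature cells 102. In CPM, Bid was higher in mature cells than in progenitors by 2.36-fold, also in 4 of 4. Per cell, Bid was lower in mature cells in every library. In Ctrl replicate 1, for example, 177 progenitors held 36 Bid UMIs and 605 mature cells 58. Bax and Bak1 were lower in mature cells than in progenitors in 4 of 4 libraries, at 0.627 and 0.556 times the progenitor level.

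The Bcl2a1 genes followed a different course. Their sum fell from progenitors to dividing immature neutrophils in 4 of 4 libraries (log2 ratio -1.75 ± 0.58), had no common direction over the next 2 steps, and was higher in mature than in intermediate cells (log2 ratio 1.204 ± 0.73) and in activated than in mature cells (1.82 ± 0.43), each in 4 of 4. The former rested on 9 UMIs in intermediate and 9 in mature cells of Ctrl replicate 1, 7 and 18 of Ctrl replicate 2, 16 and 22 of HLU replicate 1, and 161 and 542 of HLU replicate 2, so that in 3 of the 4 libraries the direction rests on at most 22 UMIs a stage. The copies differed in this: mature neutrophils had 0.180 times the Bcl2a1d of progenitors (log2 ratio -2.47 ± 0.44, lower in 4 of 4) but 0.7498 times the Bcl2a1b (-0.42 ± 0.60, lower in 3 of 4), with 1, 2, 6 and 32 Bcl2a1d UMIs in the mature cells of the 4 libraries. Monocytes, the sister lineage, had 12.5 times the Bcl2a1 sum of mature neutrophils (log2 ratio 3.65 ± 0.21, 4 of 4) and 0.519 times their Mcl1.

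**Figure D3:**
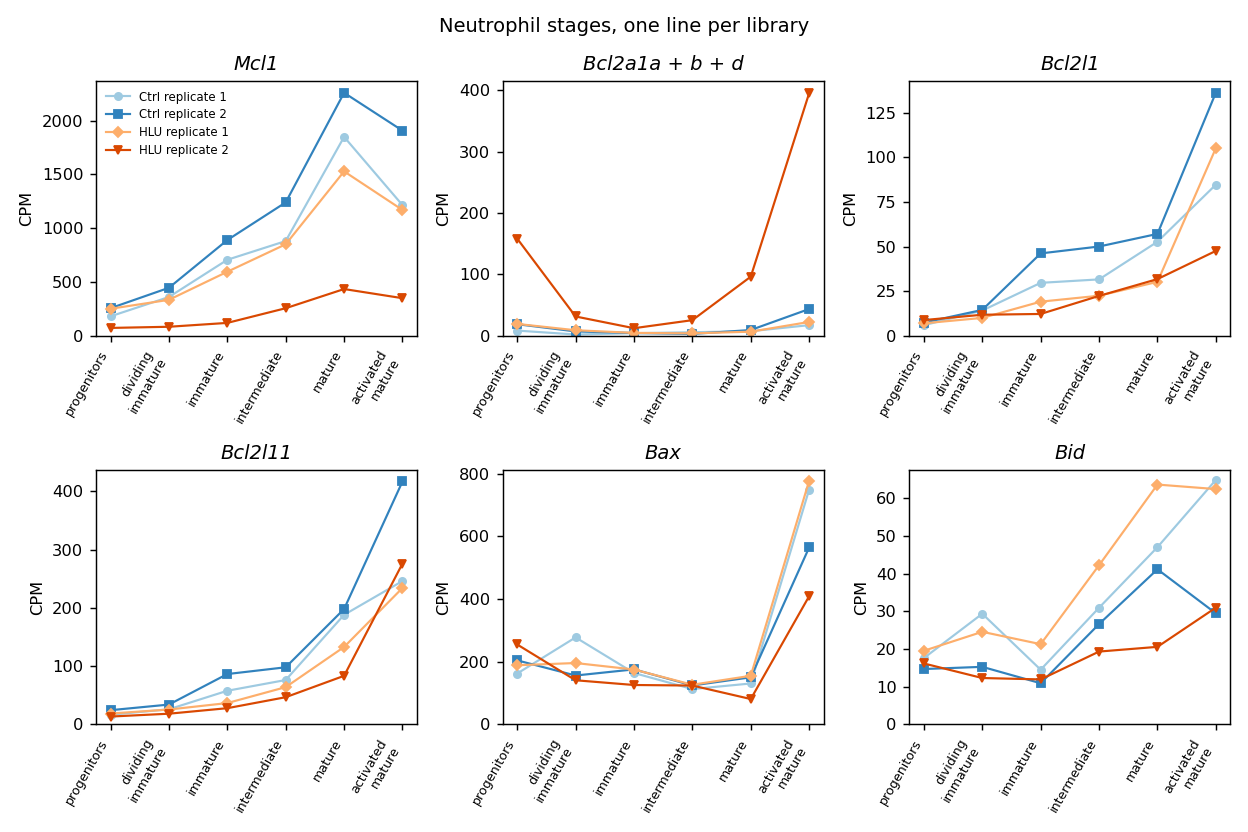
Level of Mcl1, the summed Bcl2a1 genes, Bcl2l1, Bcl2l11, Bax and Bid (y axes, CPM, linear scale from 0) at 6 neutrophil stages (x axis), with 1 line per library. Mcl1, Bcl2l1 and Bcl2l11 climb from progenitors to mature cells in all 4 libraries and Bax climbs at the last step, and HLU replicate 2 lies lowest for Mcl1 and highest for the Bcl2a1 sum at each stage.

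From mature to activated neutrophils Bax rose 4.84-fold (log2 ratio 2.27 ± 0.26), Bcl2l1 2.12-fold and Bcl2l11 2.00-fold, each in 4 of 4 libraries, while Mcl1 fell by 0.39 ± 0.16 on the log2 scale, in 4 of 4. The activated cells were 2 clusters that differed in Mcl1, Bax and Bcl2l11. The cluster led by Ccrl2 and Cd274 had 2336, 2463, 1983 and 360.2 CPM of Mcl1 and 314, 359, 393 and 287 CPM of Bax in Ctrl replicates 1 and 2 and HLU replicates 1 and 2. The cluster led by Clec4n and Prdx1, which had no marker of the activated list among its top 10 genes, had 559, 878, 642 and 319.6 CPM of Mcl1 and 1004, 945, 1027 and 718 CPM of Bax. With the first cluster alone, Mcl1 was above mature neutrophils in 3 of the 4 libraries, and in HLU replicate 2 it was below them (360.2 against 434 CPM). Bax was above mature neutrophils in both clusters and further above in the second. Bcl2l11 stood at 460, 501, 340 and 213 CPM in the first cluster and 121, 262, 165 and 435 CPM in the second, with the libraries in the same order. In Ctrl replicate 1 the second cluster was thus below mature neutrophils (121 against 188 CPM), so the common direction of Bcl2l11 holds for the pooled cells.

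Set against each other, the 6 survival genes outnumbered the 2 effectors by 10.3 ± 3.84 to 1 in mature neutrophils, 5.73 ± 2.75 in intermediate, 3.17 ± 1.61 in immature, 1.53 ± 0.83 in dividing immature neutrophils and 1.09 ± 0.22 in progenitors (n = 4 each). In activated mature neutrophils the ratio was 2.20 ± 0.94, in monocytes 2.14 ± 0.27 and in dendritic cells 11.1 ± 3.06 (n = 3). The value for activated mature neutrophils pools the 2 unlike clusters described above and stands for neither. In the Ccrl2 and Cd274 cluster Mcl1 exceeded Bax in every library, and in the Clec4n and Prdx1 cluster Bax exceeded Mcl1 in every library. Megakaryocytes (0.838 ± 0.295, n = 4) and basophils (0.861 ± 0.313, n = 2) had more effector than survival UMIs on average. Mature neutrophils and dendritic cells thus had a similar surplus, made of Mcl1 in the former and of the Bcl2a1 genes in the latter. These are transcript ratios and say nothing of the proteins.

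Across the 17 type means, among 6450 genes of at least 50 CPM in some type, the genes most like Mcl1 by Pearson correlation of log2(CPM + 1) were Cop1 (r = 0.95), Zfp36 (0.95) and Gsap (0.94). Those most like Bcl2a1b were Bcl2a1d (0.97), H2-Eb1 (0.91) and Filip1l (0.91), while Bcl2a1a was most like Shtn1 (0.93), Clec4a3 (0.92) and Tmem106a (0.91), with neither of its copies among its nearest 3. Bcl2a1d was nearest to Bcl2a1b, H2-Eb1 (0.95) and Phf11b (0.93). Bak1 was most like Coro1b (0.98), Brd7 (0.96) and Cs (0.96), and Bax like Psmc2 (0.88), Mea1 (0.85) and Eif4a1 (0.85). Bcl2 resembled Ubr2 (0.90), Ddx23 (0.87) and Kdsr (0.86), and Bcl2l1 resembled Bsdc1 (0.85) and Ppp1cb (0.76). Nearest to Bcl2l11 were H2-D1 (0.87), Lfng (0.87) and Mau2 (0.87), and to Bid, Dusp6 (0.85), Insr (0.85) and Gpank1 (0.84). The type means share libraries and differ in depth, so these are descriptions.

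HLU replicate 2 lay outside the other 3 libraries in Mcl1 and the Bcl2a1 sum nearly everywhere. Other apoptosis genes tested in 12 types varied in this. HLU replicate 2 was lowest in 12 for Birc2 and Bnip3 and 11 for Bnip3l, but in 4 for Trp53, 2 for Cflar, Birc3 and Diablo, 1 for Apaf1 and Casp8 and 0 for Xiap. The share over all genes was not counted. The Mcl1 of HLU replicate 2 was below every other library in 15 of 15 types that could be compared, and its Bcl2a1 sum was above every other library in 14 of 15. Of these 14, erythroid cells and basophils had a single other library, at 0 UMIs against 2 and 8, and megakaryocytes had 3 UMIs against at most 2. Mcl1 was lower than the mean of the other libraries by 4.33-fold in mature neutrophils, 6.14-fold in immature neutrophils, 3.01-fold in monocytes and 1.67-fold in T and NK cells. The Bcl2a1 sum was higher by 12.5-fold in mature neutrophils, 14.3-fold in activated mature neutrophils, 10.04-fold in monocytes and 10.3-fold in neutrophil progenitors, but by 1.54-fold in dendritic cells and 1.597-fold in mature B cells, where it was high in every library. T and NK cells were the exception, at 140 CPM against 81.6 to 148 CPM. Neutrophil progenitors pool 2 clusters. The Ctsg and Mpo cluster had 217 CPM in HLU replicate 2 against 10.3 to 22.1 CPM in the other libraries. The Fcnb and Prtn3 cluster had 47.1 CPM against 5.68 to 16.5 CPM. In single monocytes thinned to 1000 UMIs, 38.4% had Bcl2a1 without Mcl1 in HLU replicate 2, against 1.10 to 3.80% in the other libraries.

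**Figure D4:**
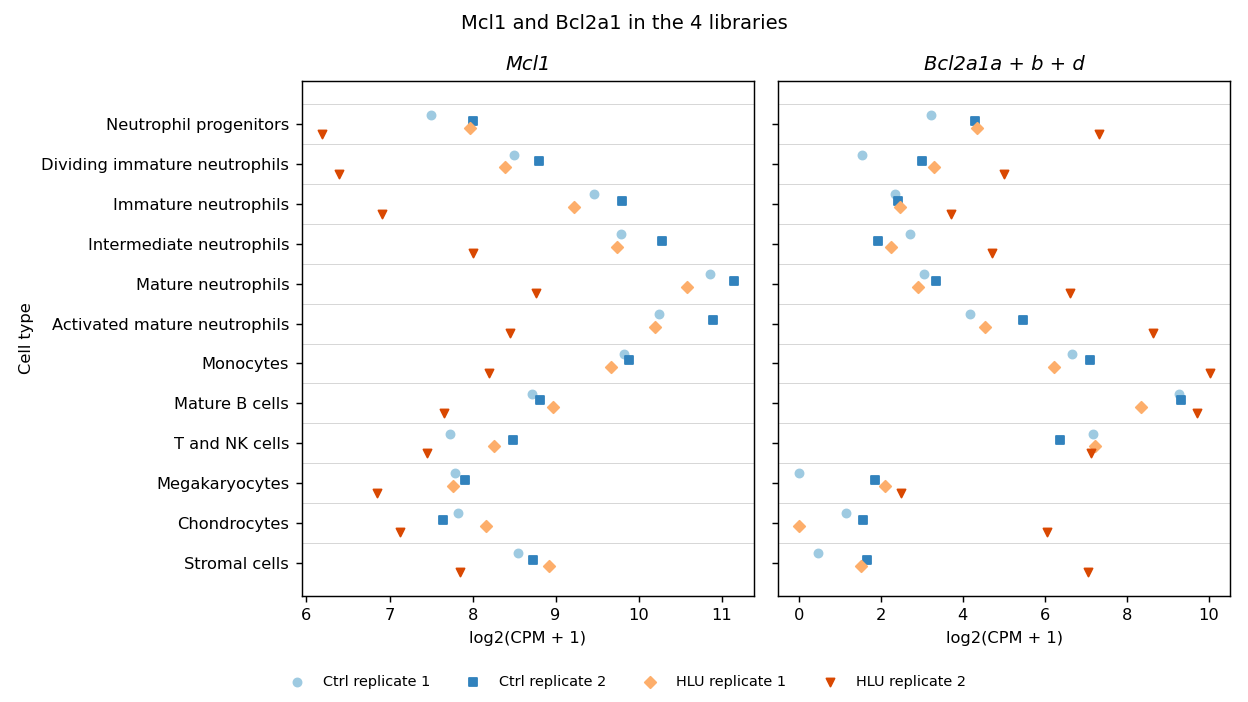
Level of Mcl1 (left) and of the summed Bcl2a1 genes (right) as log2(CPM + 1) (x axes) in the 12 cell types with at least 20 cells in every library (y axis), with 1 point per library. The HLU replicate 2 point is the lowest for Mcl1 in each of the 12 types and the highest for the Bcl2a1 sum in each except T and NK cells.

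Other quantities moved with HLU replicate 2. Genes induced by tissue dissociation, a list that includes Fos, Jun, Egr1 and Zfp36, made up 0.665, 0.689, 0.515 and 0.248% of the UMIs of mature neutrophils in Ctrl replicates 1 and 2 and HLU replicates 1 and 2, and S100a8 with S100a9 14.4, 16.3, 17.3 and 29.5%. In chondrocytes and stromal cells, which belong to tissues not known for these genes, Bcl2a1 UMIs were found in 12 of 108 (11.1%, exact 95% interval 5.87 to 18.6%) and 15 of 73 cells (20.5%, 11.98 to 31.6%) of HLU replicate 2. The shares in the Ctrl libraries were 0.433 and 1.54% of chondrocytes and 0.296 and 1.19% of stromal cells. HLU replicate 1 had them in 1 of 53 stromal cells (1.89%) and 0 of 47 chondrocytes, which by 3 counts of the total allows a share of cells with a UMI of up to 6.38% (by the exact 95% interval, up to 7.55%). These limits concern cells with a UMI, not cells that express the genes, and cover counting error only. The part of these quantities in the levels was not tested, and with 1 library the mouse and its preparation cannot be told apart.

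Whether unloading changed the family was tested in the 12 types with at least 20 cells in every library, with edgeR's quasi-likelihood test on the UMIs summed per library and type. Of 120 pairs of member and type, 94 passed the filter on low counts, and 0 of the 94 were called at an adjusted p of 0.05. The background over all genes was 0.718%. DESeq2 called 1 of the 94 (background 2.36%), and 15 had an unadjusted p under 0.05 by edgeR (16.0%, background 9.91%). Both HLU libraries lay above both Ctrl libraries in 20 of 94 pairs (21.3%, against 26.9% of all genes) and below them in 20 (21.3%, against 15.4%). These positions compare CPM, while the fold changes also use edgeR's normalization between libraries (TMM). A gene can thus lie below Ctrl in both HLU libraries with a positive fold change. Birc3 did so in mature neutrophils (293 and 272 against 243 and 253 CPM, log2 fold change 0.06). The types share the same mice, so counts of types are not counts of independent results. With 2 libraries a group, a permutation test of a single gene cannot go below p = 0.333.

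Without HLU replicate 2, edgeR called 10 of 96 pairs, 2 higher and 8 lower in HLU (background 3.59%). Without HLU replicate 1 it called 47 of 106, 30 higher and 17 lower (background 22.8%). Each of these fits leaves 1 HLU library, which is assumed to vary like the Ctrl libraries. The calls came and went with the choice of the HLU library, and in the values below the 4 libraries are therefore kept apart.

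The fitted change of Mcl1 was negative in 12 of 12 types, from -1.16 to -0.32 on the log2 scale, and both HLU libraries lay below both Ctrl libraries in 7 of the 12 (all genes, 15.4% over the 12 types and 9.06 to 23.9% in single types). In immature neutrophils Mcl1 stood at 706 and 889 CPM in Ctrl and 594 and 119 CPM in HLU (log2 fold change -1.16 with a standard error of 0.58, adjusted p = 0.486 by edgeR). In mature neutrophils the log2 fold change was -0.99 (standard error 0.52, adjusted p = 0.594 by edgeR) and without HLU replicate 2 it was -0.51, with edgeR's adjusted p = 0.168. Mature B cells, stromal cells and chondrocytes had more Mcl1 in HLU replicate 1 than in either Ctrl library (499.5, 485 and 285 CPM). Both HLU mice thus lay below both Ctrl mice in monocytes, megakaryocytes and the neutrophil stages after progenitors, and not in the other 5 types. In some of these HLU replicate 1 was close to the lower Ctrl library, at 216.5 against 219.8 CPM in megakaryocytes and 850 against 880 CPM in intermediate neutrophils. It was further below in mature neutrophils, at 1528 against 1849 CPM.

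Bcl2l1 was lower in both HLU libraries than in both Ctrl libraries in 6 of 10 types (all genes, 15.4%, and 23.9% in mature neutrophils): dividing immature, immature, intermediate and mature neutrophils, chondrocytes and stromal cells. In immature neutrophils it stood at 29.6 and 46.2 CPM in Ctrl and 19.1 and 12.2 CPM in HLU (log2 fold change -1.18 with a standard error of 0.35, adjusted p = 0.299 by edgeR). These cells pool 2 clusters. In the cluster led by Ldhc and Ltf, Bcl2l1 stood at 43.4 and 63.1 CPM in Ctrl and 23.5 and 13.6 CPM in HLU. In the cluster led by Mogat2 and Orm1 it stood at 9.37 and 17.7 against 11.0 and 9.59 CPM, and the groups overlapped. In mature neutrophils Bcl2l1 stood at 52.7 and 57.1 CPM in Ctrl and 30.2 and 31.8 CPM in HLU (log2 fold change -0.57 with a standard error of 0.37, adjusted p = 0.639 by edgeR). Here the HLU mice lay together. Without HLU replicate 2 both types passed, at log2 fold changes of -1.13 and -0.95 (edgeR's adjusted p = 0.0322 and 0.0293), whereas clusters made without integrating the libraries turned both signs, to 0.04 and 0.53.

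Bcl2 differed most in chondrocytes. It gave 1943 and 1208 UMIs (102 and 66.8 CPM) in Ctrl and 11 and 11 UMIs (15.8 and 9.79 CPM) in HLU, a log2 fold change of -3.07 (standard error 0.38, adjusted p = 0.0715 by edgeR). The groups were far apart but rested on 1846 and 1489 Ctrl against 47 and 108 HLU chondrocytes. DESeq2 called this pair, and so did edgeR with either HLU replicate left out, but not with either Ctrl replicate left out. Within the Col10a1 and Acan cluster alone, which held most chondrocytes of every library, Bcl2 stood at 125 and 93.9 CPM in Ctrl and 21.4 and 12.8 CPM in HLU. S100a8 and S100a9, neutrophil transcripts, made up 0.135 and 0.271% of the chondrocyte UMIs in Ctrl and 2.21 and 1.97% in HLU, and the summed cartilage and mesenchymal transcripts 6.81 and 6.95% against 2.85 and 3.002%; their part in the difference was not tested.

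**Figure D5:**
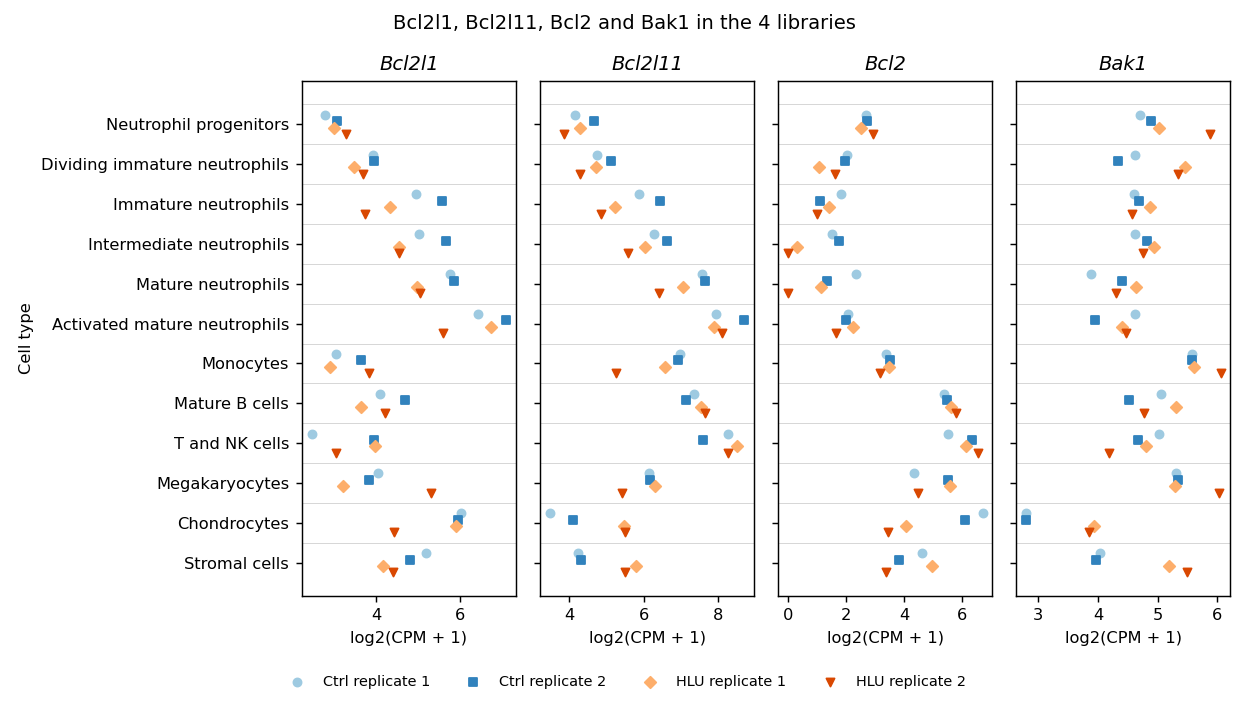
Level of Bcl2l1, Bcl2l11, Bcl2 and Bak1 as log2(CPM + 1) (x axes) in the same 12 cell types (y axis), with 1 point per library. In chondrocytes both HLU points lie below both Ctrl points for Bcl2 (15.8 and 9.79 against 102 and 66.8 CPM), and in stromal cells both lie above them for Bcl2l11 and Bak1.

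The Bcl2a1 genes had positive fold changes in most types through HLU replicate 2. In mature neutrophils Bcl2a1b stood at 5.68 and 6.17 CPM in Ctrl and 3.85 and 55.3 CPM in HLU (log2 fold change 2.78 with a standard error of 1.31, adjusted p = 0.586 by edgeR). In chondrocytes it gave 18, 22, 0 and 44 UMIs (log2 fold change 4.004 with a standard error of 1.15, adjusted p = 0.185 by edgeR). Without HLU replicate 2 both turned sign, to -0.70 and -6.79, the latter against a library at 0, so that its size depends on the prior count. Bcl2a1a in activated mature neutrophils had a log2 fold change of 3.50 (standard error 1.65, adjusted p = 0.813 by edgeR), on 1, 23, 7 and 441 UMIs, and of -1.52 without HLU replicate 2. Bcl2a1d in neutrophil progenitors was above both Ctrl libraries (3.42 and 5.34 CPM) in both HLU libraries (8.95 and 49.0 CPM; log2 fold change 2.43 with a standard error of 0.78, adjusted p = 0.831 by edgeR).

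With HLU replicate 1 alone against Ctrl, the Bcl2a1 genes were lower in mature B cells and monocytes. In mature B cells Bcl2a1d fell by 1.36 and Bcl2a1b by 1.04 on the log2 scale (edgeR's adjusted p = 3.5e-05 and 0.00207), and in monocytes Bcl2a1a fell by 1.17 and Bcl2a1b by 0.71 (0.00806 and 0.0375). In HLU replicate 2 the same genes were above both Ctrl libraries, so the 2 HLU mice lay on opposite sides of the controls.

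Of the effectors, Bak1 was higher in both HLU libraries in 5 of 12 types and Bax in 4 of 12, beside 26.9% of all genes, so that Bax lay near the background, and neither was lower in both in any type. In stromal cells the share of all genes was 45.3%. In stromal cells Bak1 stood at 15.4 and 14.7 CPM in Ctrl and 35.7 and 44.1 CPM in HLU (log2 fold change 1.07 with a standard error of 0.26, adjusted p = 0.0938 by edgeR), and Bax at 270.1 and 254 CPM in Ctrl and 372 and 509.5 CPM in HLU (log2 fold change 0.40 with a standard error of 0.31, adjusted p = 0.483 by edgeR). The BH3-only genes went the same way there: Bcl2l11 stood at 17.7 and 18.8 CPM in Ctrl and 54.5 and 44.1 CPM in HLU (log2 fold change 1.05 with a standard error of 0.23, adjusted p = 0.0811 by edgeR) and Bid at 15.9 and 9.83 CPM in Ctrl and 63.9 and 33.6 CPM in HLU (log2 fold change 1.48 with a standard error of 0.40, adjusted p = 0.109 by edgeR). The groups did not overlap for any of the 4 genes. Without HLU replicate 2, Bcl2l11 and Bid passed (log2 fold changes 1.08 and 1.79, edgeR's adjusted p = 0.0468 and 0.0365). The 2 stromal clusters were unequally filled, the Ogn and Apod cluster holding 806 of 1350 and 252 of 674 stromal cells in Ctrl and 16 of 53 and 14 of 73 in HLU. Within the Col1a1 and Col3a1 cluster, Bcl2l11 stood at 14.4 and 18.1 CPM in Ctrl and 40.6 and 45.6 CPM in HLU, Bak1 at 19.2 and 14.8 against 38.5 and 46.7 CPM, and Bid at 21.5 and 10.8 against 70.5 and 35.3 CPM. S100a8 and S100a9 made up 0.147 and 0.338% of the stromal UMIs in Ctrl and 1.10 and 1.14% in HLU, and their part in these differences was not tested.

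Bcl2l11 had fitted changes of both signs, and its count of types above Ctrl was near the share of all genes. Both HLU libraries were above both Ctrl libraries in chondrocytes, stromal cells, mature B cells and T and NK cells (4 of 12 types, all genes 26.9%). In these types 37.6, 45.3, 31.7 and 21.5% of all genes were above. Both were below in dividing immature, immature, intermediate and mature neutrophils and in monocytes (5 of 12, all genes 15.4%). There 13.3, 21.1, 19.2, 23.9 and 15.8% of all genes were below. In chondrocytes it stood at 10.1 and 16.2 CPM in Ctrl and 43.0 and 44.5 CPM in HLU (log2 fold change 1.44 with a standard error of 0.33, adjusted p = 0.133 by edgeR). In mature neutrophils it stood at 188 and 198 CPM in Ctrl and 133 and 83.4 CPM in HLU (log2 fold change -0.66 with a standard error of 0.31, adjusted p = 0.587 by edgeR). The difference between these directions was not tested. The chondrocyte values rest on 191 and 293 Bcl2l11 UMIs in Ctrl and 30 and 50 in HLU. S100a8 and S100a9 made up 0.135 and 0.271% of the chondrocyte UMIs in Ctrl and 2.21 and 1.97% in HLU. Their part in the chondrocyte difference was not tested.

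The rest of the pathway was read from a list of 42 genes. In the same fits 376 pairs of gene and type were tested, 1 was called higher and 0 lower by edgeR, 36 had an unadjusted p under 0.05, and the median log2 fold change was 0.03, beside 0.02 over all genes. The called gene was Csf3r, the receptor of the neutrophil growth factor G-CSF, in stromal cells, at 7.43 and 10.1 CPM in Ctrl and 62.0 and 49.4 CPM in HLU (log2 fold change 2.30 with a standard error of 0.27, adjusted p = 0.0443 by edgeR), on 79, 75, 33 and 47 UMIs. Csf3r was highest in mature neutrophils, at 1127 ± 333 CPM (n = 4), and the neutrophil transcripts S100a8 and S100a9 moved with it in stromal cells as given above. Csf3r in stromal cells was not called with either Ctrl replicate left out (edgeR's adjusted p = 0.309 without replicate 1 and 0.257 without replicate 2). The other roles had no call by edgeR over the 4 libraries. Besides Csf3r in stromal cells, 4 pairs, chosen after their values were seen, were called with either HLU replicate left out. Pmaip1, the gene of the BH3-only protein Noxa, stood at 13.3 and 12.6 CPM in Ctrl and 3.51 and 2.94 CPM in HLU in dividing immature neutrophils (log2 fold change -2.05 with a standard error of 0.38, adjusted p = 0.0774 by edgeR and 0.0243 by DESeq2), and here too the HLU mice lay together. Bag3, a co-chaperone gene, stood at 11.4 and 6.17 CPM in Ctrl and 1.48 and 0.177 CPM in HLU in mature neutrophils, on 14, 12, 5 and 1 UMIs (log2 fold change -3.33 with a standard error of 0.81, adjusted p = 0.197 by edgeR). The other pairs were Bnip3, lower in mature B cells (log2 fold change -1.68, adjusted p = 0.615 by edgeR), and Csf3r, higher in monocytes (0.71, 0.862). None of these 4 pairs was called by edgeR with either Ctrl replicate left out. How many pairs over all genes were called with either HLU replicate left out was not counted. Of the other anti-apoptotic genes, Bcl2l12 was highest in precursor B cells (45.6 ± 22.7 CPM, n = 3) and Bcl2l2, the gene of Bcl-w, in stromal cells (26.0 ± 17.8 CPM, n = 4).

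Among the related BH3-only genes, Bnip3l and Bnip3, which act in mitophagy, were most abundant, with Bnip3l at 795 ± 256 CPM in erythroid cells (n = 2) and Bnip3 at 1091 and 1183 CPM in Ctrl and 823 and 31.0 CPM in HLU in mature neutrophils. Bnip3 was lowest in HLU replicate 2 in 12 of 12 types, as Mcl1 was. Cycs, which encodes cytochrome c, and Vdac2, which holds Bak in the mitochondrial membrane, were highest in neutrophil progenitors, at 382 ± 46.4 and 439.9 ± 39.1 CPM, and stood at 65.9 ± 24.9 and 174 ± 58.8 CPM in mature neutrophils (n = 4 each). The initiator caspase gene Casp8 stood at 56.5 ± 4.28 CPM in progenitors and 17.3 ± 5.89 CPM in mature neutrophils (n = 4 each). Of the inhibitors, Cflar, which blocks caspase-8, stood at 84.3 ± 10.2 and 175 ± 22.5 CPM and Birc3 at 32.9 ± 10.1 and 265 ± 21.9 CPM in progenitors and mature neutrophils (n = 4 each). Bcl2l10, Bcl2a1c, Hrk, Bcl2l14 and Bcl2l15 passed the filter on low counts in no type.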

How the data were processed

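Single-cell suspensions of tibia and femur from 2 Ctrl and 2 HLU mice, 1 library each, had been made with the 10x 3′ kit V3.1 and processed by the authors with Cell Ranger 6.0.0 against mm10; Seurat 4.1.0 is also named in their processing notes. The deposited matrices hold raw UMI counts per gene and barcode, with no normalization. No deposited column belonged to samples other than these 4.

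Barcodes with 1000 to 40000 UMIs and at most 10% mitochondrial UMIs were kept. Putative doublets were removed per library with Scrublet in scanpy 1.11.5 (431 to 720 cells). The study's methods also filter doublets, with DoubletFinder, but the deposited matrices still hold barcodes outside the study's UMI limits. Cells were clustered with Seurat 5.3.0 (2000 variable genes without the Bcl-2 family, 50 principal components, integration of the libraries, resolution 1). A cluster was named where at least 3 of its type's markers were raised at least 2-fold (log2 of 1), the mean log2 fold of the highest was at least 1.5, and an own marker was among its top 10 genes or at least 5 were raised with a mean of at least 2. Clusters with a median UMI count far below that of their libraries, led by mural cell genes or with more markers of another type on top stayed unnamed. A type was used in a library with at least 20 cells. These naming thresholds were chosen with the clusters in view. Intermediate neutrophils are 1 cluster in which both the immature and the mature markers were raised, with 3 and 2 of them among its top 10 genes.

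Counts were summed per library and type and tested with edgeR 4.0.16 (TMM, filterByExpr, glmQLFit and glmQLFTest, Benjamini-Hochberg adjustment over all genes of a type, threshold 0.05). Alternatives were DESeq2 1.42.0, other size factors, no filter, a replicate block, each library left out, resolutions of 0.5 and 2, no integration, a haemoglobin limit of 0.2%, a doubled doublet rate, cells thinned to 1000 UMIs and a mean over cells. In simulated data, edgeR recovered 195 of 200 genes changed by a log2 of 2 among 7145 in mature neutrophils, with 7 false calls, and 182 of 200 among 8031 in mature B cells, with 12. The simulated spread was estimated from the Ctrl libraries alone and left out the distance between the HLU libraries. These recoveries therefore do not measure the power of the tests on the real libraries. R 4.3.3, Python 3.11.15 and numpy 2.4.6 were used.

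All 10 members are described. Some genes that the rules below would name are not reported here. Of the pathway list, genes called in any type are named, otherwise the 2 most abundant of a role. For the log2 fold changes, each member is given in the type with its smallest p, and Mcl1, Bcl2a1b, Bcl2l1 and Bcl2l11 also in mature neutrophils; other pairs, the single clusters and the members called without a library were chosen after their values were seen. The members and lists were chosen with earlier results of these data known. Replicates are separate mice of 1 study, and p-values measure the spread between these 4 libraries.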

Additional observations from a re-analysis of the deposited data

Results flagged for a closer look

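The fitted HLU against Ctrl changes of 2 members differed in sign between cell types. In the types named, both HLU libraries lay on the same side of both Ctrl libraries. The log2 fold change of Bcl2 was 0.09 in mature B cells and -3.07 in chondrocytes, a gap of 3.16. That in mature B cells had a standard error of 0.32 and is no clear change. Of all genes in mature B cells, 31.7% had both HLU libraries above both Ctrl libraries. The log2 fold change of Bcl2l11 was 1.44 in chondrocytes and -1.04 in immature neutrophils, a gap of 2.48. It had 4 types up and 5 types down of 12, beside 26.9% of all genes up and 15.4% down. The chondrocyte value of Bcl2l11 rests on 30 and 50 UMIs in HLU. In the immature neutrophil cluster led by Mogat2 and Orm1 the groups overlapped for Bcl2l11 (21.1 and 29.9 CPM in Ctrl, 21.6 and 15.9 CPM in HLU). Neither gap was tested, and neither change passed the threshold by edgeR over the 4 libraries in any of these types. That of Bcl2 in chondrocytes passed by DESeq2 and with either HLU replicate left out, but not with either Ctrl replicate left out.

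Barcodes under 1000 UMIs, which entered no comparison, also carried the Bcl2a1 genes. Their sum stood at 460.3 CPM in the 267 such barcodes of HLU replicate 2, against 48.7 and 41.6 CPM in Ctrl replicates 1 and 2 and 44.0 CPM in HLU replicate 1. Mcl1 in the same barcodes stood at 563 and 598 CPM in Ctrl and 728 and 256 CPM in HLU. The difference of this library from the others was not tested.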

How the results depend on the processing

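The number of members called (0 of 94 tests) became 1 of 94 with DESeq2, 21 of 120 without the filter on low counts and 3 of 94 with the replicate block. It became 1 of 104 at resolution 0.5 and 4 of 94 without integration, and depended on which library was left out. It stayed at 0 with other size factors, at resolution 2, under the haemoglobin limit and with the doubled doublet rate. The pathway count (1) became 6 with DESeq2, 22 without the filter, 7 with the replicate block and 0 at resolution 0.5, and ran from 0 to 102 with 1 library left out; it was 0 without Ctrl replicate 2, 8 without HLU replicate 2 and 102 without HLU replicate 1. Over all genes, the 745 calls of 103726 tests became 2447 of 103726 with DESeq2, 5926 of 187474 without the filter and 1791 of 103726 with the replicate block. They became 1433 of 112206 at resolution 0.5 and 1170 of 101112 without integration, and also depended on the library left out. Clusters made without integration turned the sign of Bcl2l1 in immature (0.0413) and mature neutrophils (0.53) and of Bcl2l11 in mature neutrophils (0.50); the cause was not tested. Leaving out 1 library gave log2 fold changes of -1.52 to 7.07 for Bcl2a1a in activated mature neutrophils, -6.79 to 4.87 for Bcl2a1b in chondrocytes and -0.70 to 3.71 for Bcl2a1b in mature neutrophils, the negative ones without HLU replicate 2. Deviations of libraries with the same replicate number correlated at -0.08 to 0.16 over the 12 types, so the numbers were not taken to pair the mice. The gene with the largest share changed without HLU replicate 2 (erythroid cells, to Mcl1) and with the mean over cells (mature B cells, to Mcl1). Of the levels recomputed under an alternative, 77 moved by more than 1 SD and 1808 did not; of the shares, 37 and 1146. With the Ccrl2 cluster alone, an alternative chosen after seeing the data, activated mature neutrophils had 1786 CPM of Mcl1 and 338 CPM of Bax. Low counts of Bcl2 in neutrophils, 26 to 44 megakaryocytes a library, 47 and 108 HLU chondrocytes and 53 and 73 HLU stromal cells limit precision.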

Other observations

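The unnamed clusters held further cells with a marked use of the family. In a cluster led by the ribosome biogenesis genes Srm, Rrp9, Gar1 and Nop56 and the p53 target Phlda3, Bcl2a1b stood at 12.2 and 89.5 CPM in Ctrl (170 and 225 cells) and 1065 and 1411 CPM in HLU (76 and 46 cells), and Bax at 568 and 429 CPM in Ctrl and 446 and 651 CPM in HLU. Bcl2a1a was at 0, 2.49, 0 and 7.75 CPM there. Bcl2l11 stood at 11.1 and 18.9 CPM in Ctrl and 171 and 105 CPM in HLU, and Bcl2 at 12.2 and 13.9 against 60.6 and 38.8 CPM. An unnamed cluster can hold different cell types in Ctrl and HLU, and whether this cluster did was not tested. Its values are thus not a comparison within a known cell type. In a cluster led by the endoplasmic reticulum stress genes Creld2, Hspa5 and Herpud1, Bcl2 stood at 97.9 and 35.9 CPM in Ctrl and 11.95 CPM in HLU replicate 1, and Mcl1 at 389, 688 and 1177 CPM. In a cluster led by the heat shock genes Hspa1a and Hspa1b, Mcl1 stood at 1253 and 1296 CPM in Ctrl and 1626 CPM in HLU replicate 1. These are values of single libraries without a test, and the cell types within these clusters were not settled in either group.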
